A study of Hydra vulgaris with 36 samples.

Results

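The transcripts hywnt5a (GeneID.100202930) and hywnt8 (GeneID.100200795) encode 2 Wnt ligands of the freshwater polyp Hydra vulgaris, and they were taken by their gene numbers as 2 of the 22608 genes in the count table. Their levels were read by RNA-seq in 36 libraries of tentacle tissue, in 10 groups, after RNA interference (RNAi) directed at Zic4, at Sp5 or at both of these transcription factors. All animals were of strain Hm_105 and labelled wild type. Per the labels' protocols, each treatment used 20 to 30 animals, which received 3 electroporations with small interfering RNA (siRNA) at 1.35 µM each. Tentacles were cut 7 days after the last of these and pooled, so a library holds tissue of several animals.

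The divided set gave 25 libraries. They were ectopic tentacles, those at an unusual position, of Sp5 RNAi animals (n = 3), distal parts of original (normally placed) tentacles, which had been cut into a distal and a proximal part, from Zic4 RNAi (n = 4), Sp5 RNAi (n = 3) and mock RNAi animals (n = 4), and proximal parts from the same treatments (n = 4, 3 and 4). The undivided set gave 11 libraries, of Zic4/Sp5 RNAi ectopic tentacles (n = 4), Zic4/Sp5 RNAi original tentacles (n = 4) and mock RNAi original tentacles (n = 3). The siRNA was given to whole animals, and no name in the gene table matched Zic4 or Sp5, whose own transcripts are not analysed here. Nothing in the labels says that libraries of a group came from separate cultures, so p-values measure the spread between these libraries, which may be technical.

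Wnt proteins are secreted signals that bind frizzled receptors. One branch of the pathway acts through beta-catenin and drives the head organizer at the tip of the Hydra head, and another acts without beta-catenin on cell shape and movement. In Hydra, Wnt5 and Wnt8 are known as ligands of the second kind, expressed where tissue evaginates to form tentacles and buds.

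Library totals were 2.04 to 10.6 M (mega) counts in the divided set and 7.31 to 13.3 M in the undivided set. Both Wnt transcripts were detected in every library, with 137 to 3393 counts for hywnt5a and 56 to 653 for hywnt8. Levels are CPM, counts scaled to a library of 1 M, after TMM scaling, which corrects for library composition. They are not corrected for transcript length. The tentacle markers Alx, a homeobox gene, and Annexin-12, a gene of the battery cells, were present in all 10 groups. Mock proximal libraries stood apart in composition, with 17.2% to 23.1% of counts in their 10 most abundant genes against 9.24% to 17.7% elsewhere, and their TMM factors of 0.541 to 0.777 were low. In bulk tissue, fewer cells of a type and less RNA per cell cannot be told apart.

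The transcript hywnt5a was about 3 times as abundant in the distal as in the proximal part of the tentacle, and this held in mock, Zic4 RNAi and Sp5 RNAi animals. In mock animals it had 348, 377, 279 and 251 CPM in the distal parts, against 76.4, 117, 97.3 and 150 CPM in the proximal parts. In Zic4 RNAi animals it had 272, 187, 356 and 285 CPM in the distal parts, against 99.2, 102, 83.1 and 68.3 CPM in the proximal parts. In Sp5 RNAi animals it had 266, 352 and 275 CPM in the distal parts, against 90.4, 98.8 and 114 CPM in the proximal parts. Distal and proximal libraries did not overlap within any of these treatments, and the lowest distal library of all, Zic4 RNAi replicate 2, lay above the highest proximal library, mock replicate 4.

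The distal over proximal log2 fold change of hywnt5a was 1.51 ± 0.24 (SE) in mock animals, a 2.84-fold difference (edgeR quasi-likelihood test, Benjamini-Hochberg adjusted p = 0.000117). In that comparison 29.5% of the genes tested passed an adjusted p of 0.05, the threshold at which a gene is called here. In Zic4 RNAi animals the log2 fold change was 1.64 ± 0.24 (3.12-fold, edgeR adjusted p = 0.000582), where 5.76% of genes were called. There hywnt5a ranked 7 of 14332 genes by p. In Sp5 RNAi animals it was 1.56 ± 0.28 (2.94-fold, edgeR adjusted p = 0.000703), where 22.7% of genes were called. All 3 calls held without each library in turn and under the other fits and tests tried, with the composition of the libraries as a covariate among them. The tentacle markers moved the other way in mock animals. The summed level of Alx and Annexin-12, nearly all of it Annexin-12 in every group, was 1916 to 7839 CPM in mock distal parts. It was 7194 to 17379 CPM in mock proximal parts, and both markers were called lower distally. In Zic4 RNAi animals the sum was 1581 to 4155 CPM in distal and 2944 to 3826 CPM in proximal parts, and neither marker was called. In Sp5 RNAi animals it was 1357 to 1551 CPM in distal and 4780 to 12515 CPM in proximal parts, and Annexin-12 was called lower distally. Of the 3 nematocyte markers, nb012 was called lower in mock distal over proximal parts, and none was called between the parts of Zic4 RNAi or Sp5 RNAi tentacles. The part of these cells in the hywnt5a difference was not tested.

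No such difference between parts was called for hywnt8. In mock animals it had 49.3, 101, 70.5 and 73.4 CPM in distal parts, against 31.1, 69.8, 56.8 and 47.5 CPM in proximal parts. The log2 fold change was 0.52 ± 0.32 (SE; 95% interval -0.14 to 1.18; edgeR adjusted p = 0.228). In Zic4 RNAi animals the distal parts had 38.2, 27.3, 33.5 and 64.7 CPM, against 29.9, 33.8, 72.9 and 33.2 CPM in the proximal parts, and the log2 fold change was -0.06 ± 0.32 (95% interval -0.71 to 0.60; edgeR adjusted p = 0.942). This direction was not stable, since the value was 0.34, 0.10 and 0.03 without proximal replicate 3, distal replicate 2 and distal replicate 3. In Sp5 RNAi animals the distal parts had 29.2, 54.8 and 32.2 CPM, against 25.6, 22.1 and 18.1 CPM in the proximal parts. Every Sp5 RNAi distal library was above every proximal one, with a log2 fold change of 0.82 ± 0.38 that missed the threshold (unadjusted p = 0.0393, edgeR adjusted p = 0.114).

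**Figure D1:**
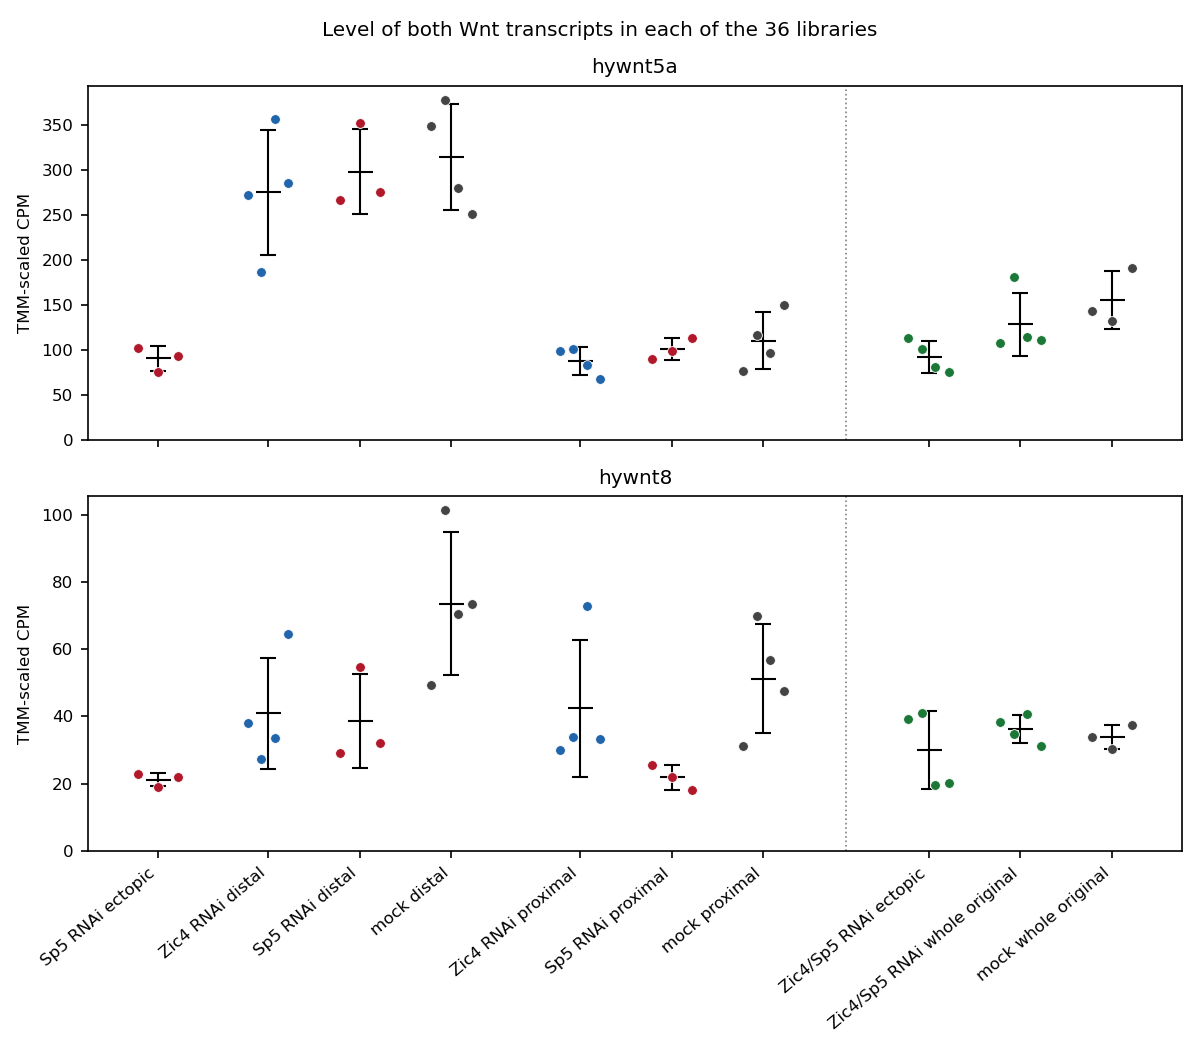
TMM-scaled CPM (linear axis from 0) of hywnt5a and hywnt8 in each library; points are libraries, bars the mean and SD of a group, and the dotted line separates the divided from the undivided set, each scaled apart. The distal groups of hywnt5a lie at 187 to 377 CPM, above all other libraries of the divided set, whereas the groups of hywnt8 mostly overlap.

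On a scale common to all 36 libraries, the order of hywnt5a levels began with the 3 distal groups. Mock distal averaged 328 ± 66.0 CPM, Sp5 RNAi distal 315 ± 49.9 CPM and Zic4 RNAi distal 291 ± 71.1 CPM (SD, n = 4, 3 and 4), and these neighbours overlapped. A gap of 2.01-fold followed. Next came mock whole original tentacles at 145 ± 29.4 CPM (n = 3), whose highest library, at 178 CPM, was below the lowest Zic4 RNAi distal library, at 198 CPM. The other 6 groups lay between 119 CPM, in Zic4/Sp5 RNAi original tentacles, and 83.7 CPM, in Zic4/Sp5 RNAi ectopic tentacles, each overlapping its neighbour. Undivided tentacles thus lay below every distal group on this scale, which joins sets that each had their own mock libraries.

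The order of hywnt8 had no gap, and every group overlapped its neighbour. Mock distal was highest at 76.8 ± 23.0 CPM and mock proximal followed at 52.2 ± 17.1 CPM (SD, n = 4 each). Mock whole original tentacles, of the other set, lay below both mock parts, at 31.6 ± 3.25 CPM (n = 3). By total counts without TMM scaling, mock whole original averaged 32.0 CPM and mock proximal 32.1 CPM. The cause of this offset between the sets was not tested. Sp5 RNAi proximal and Sp5 RNAi ectopic were lowest, at 22.5 ± 3.36 and 22.1 ± 2.33 CPM (n = 3 each). With plain CPM by total counts, mock proximal moved to place 6 for hywnt8 and to place 10 for hywnt5a, while the 3 distal groups stayed the highest for hywnt5a. Group means of hywnt5a were above 89.2% to 96.9% of the genes tested, and those of hywnt8 above 63.4% to 86.1%.

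RNAi against Zic4 gave no called change of either ligand in original tentacles. For hywnt5a the log2 fold change was -0.19 ± 0.24 (95% interval -0.68 to 0.29) in Zic4 RNAi over mock distal parts, where 3.64% of genes were called, and -0.33 ± 0.24 (95% interval -0.82 to 0.16) in Zic4 RNAi over mock proximal parts, where 33.3% were called. The edgeR adjusted p-values were 0.776 and 0.293. For hywnt8 in distal parts the 4 Zic4 RNAi libraries averaged 40.9 ± 16.5 CPM and the 4 mock libraries 73.7 ± 21.4 CPM, and the groups overlapped in 1 Zic4 RNAi library, replicate 4. The log2 fold change of -0.85 ± 0.32 had an unadjusted p of 0.0134 and an edgeR adjusted p of 0.174. For hywnt8 in proximal parts Zic4 RNAi averaged 42.5 ± 20.4 CPM and mock 51.3 ± 16.3 CPM, with a log2 fold change of -0.27 ± 0.32 (edgeR adjusted p = 0.537). Without Zic4 RNAi proximal replicate 3, this value was -0.67 (edgeR adjusted p = 0.120, in a range of 0.120 to 0.842 without 1 library).

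The direction of these uncalled proximal differences depended on the scaling. With plain CPM by total counts, Zic4 RNAi proximal parts averaged 101 CPM of hywnt5a and mock proximal parts 71.3 CPM, and for hywnt8 the means were 49.3 CPM in Zic4 RNAi and 32.1 CPM in mock.

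The effect of Zic4 RNAi on hywnt5a did not differ detectably between parts. The distal effect minus the proximal effect was 0.14 ± 0.33 on the log2 scale (95% interval -0.55 to 0.82; edgeR adjusted p = 0.867), in a test in which 3.80% of genes were called. For hywnt8 it was -0.58 ± 0.45 (95% interval -1.51 to 0.35; edgeR adjusted p = 0.520).

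After RNAi against Sp5, hywnt8 was called lower than in mock in the proximal part, at the edge of the threshold and not stably. No change of hywnt5a was called in original tentacles. The 3 Sp5 RNAi proximal libraries had 25.6, 22.1 and 18.1 CPM of hywnt8, against 31.1, 69.8, 56.8 and 47.5 CPM in the 4 mock proximal libraries, so the groups did not overlap. The log2 fold change was -1.23 ± 0.37 (SE), which is 2.34-fold lower in Sp5 RNAi (edgeR adjusted p = 0.0426), where 6.68% of genes were called. The Sp5 RNAi libraries held 56 to 62 counts of hywnt8 each. The call was lost without any of 5 of the 7 libraries: the adjusted p was 0.0549, 0.120 and 0.204 without Sp5 RNAi replicate 1, 2 and 3, and 0.128 and 0.0809 without mock replicate 2 and 3. The call held in 3 of the 8 other fits and tests. It was lost without the low-count filter, with voom, with the replicate block (adjusted p = 0.0966), with the compared groups alone, and with the composition share as a covariate (log2 fold change -0.81, edgeR adjusted p = 0.459, in a range of 0.0171 to 0.459 over the other fits and tests), and this share differed between the groups, at 13.4% to 16.2% in Sp5 RNAi and 17.2% to 23.1% in mock.

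In distal parts the Sp5 RNAi libraries averaged 38.7 ± 14 CPM of hywnt8 (n = 3) and the mock libraries 73.7 ± 21.4 CPM (n = 4). The log2 fold change of -0.92 ± 0.35 was not called (95% interval -1.65 to -0.20; unadjusted p = 0.0139, edgeR adjusted p = 0.189), and here 2.29% of genes were called. Sp5 RNAi replicate 2, at 54.8 CPM, lay within the mock range. For hywnt5a the log2 fold change of Sp5 RNAi over mock was -0.08 ± 0.25 in distal parts (95% interval -0.60 to 0.44; edgeR adjusted p = 0.919) and -0.13 ± 0.26 in proximal parts (95% interval -0.66 to 0.40; edgeR adjusted p = 0.815). In plain CPM the proximal means lay the other way, at 95.2 CPM in Sp5 RNAi and 71.3 CPM in mock. The test of the Sp5 RNAi effect in distal minus proximal parts called 0.0140% of genes and neither Wnt ligand. It gave 0.05 ± 0.36 for hywnt5a (95% interval -0.69 to 0.80; edgeR adjusted p = 0.986) and 0.30 ± 0.50 for hywnt8 (95% interval -0.72 to 1.32; edgeR adjusted p = 0.895). The comparisons of Zic4 RNAi and Sp5 RNAi with mock share their mock libraries.

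**Figure D2:**
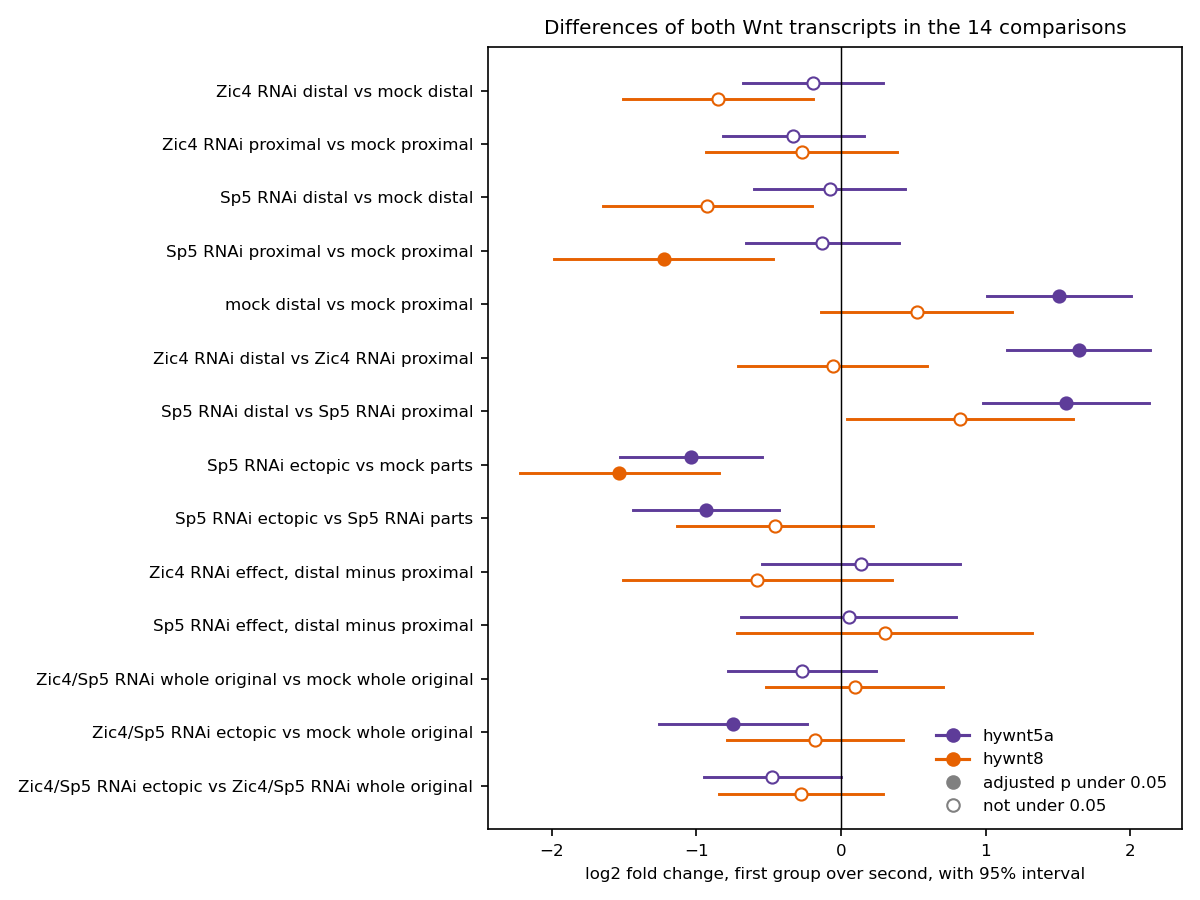
Log2 fold change (points) with 95% interval (lines) of hywnt5a and hywnt8 in the 14 comparisons, first group over second, and for the RNAi effects distal minus proximal; filled points have an edgeR adjusted p under 0.05. The 3 distal over proximal values of hywnt5a lie at 1.51 to 1.64, and the largest fall is -1.53, of hywnt8 in Sp5 RNAi ectopic tentacles over the mock parts.

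The ectopic tentacles of Sp5 RNAi animals had less of both ligands than the mean of the mock parts. For hywnt5a they had 103, 75.8 and 94.1 CPM, below all mock distal libraries, and overlapping the mock proximal libraries at 76.4 to 150 CPM. The mean of the mock parts weighs both equally on the log2 scale and is not the level of a whole tentacle. Against this mean, the log2 fold change was -1.04 ± 0.24 (SE), and 35.7% of genes were called (edgeR adjusted p = 0.00122). Taken against each part, chosen after seeing the data, it was -1.79 over mock distal (edgeR adjusted p = 9.99e-06) and -0.28 over mock proximal (edgeR adjusted p = 0.407), where plain CPM put the ectopic mean of 86.7 CPM above the mock proximal mean of 71.3 CPM. Against the mean of the Sp5 RNAi parts it was -0.93 ± 0.25 (edgeR adjusted p = 0.00558), in a comparison that called 27.3% of genes. It was -1.71 over Sp5 RNAi distal parts (edgeR adjusted p = 3.80e-05) and -0.15 over Sp5 RNAi proximal parts (edgeR adjusted p = 0.757). The call against the mean of both parts thus rested on the distal part.

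For hywnt8 the ectopic tentacles had 22.9, 18.9 and 21.8 CPM, below all 8 libraries of the mock parts, the lowest of which had 31.1 CPM. The log2 fold change over the mean of the mock parts was -1.53 ± 0.34 (SE), or 2.89-fold lower (edgeR adjusted p = 0.000716), and it was called against each mock part, at -1.79 over distal (edgeR adjusted p = 0.000364) and -1.27 over proximal (edgeR adjusted p = 0.00735). The call held without each library in turn and was lost with the composition covariate (-1.18, edgeR adjusted p = 0.0531, in a range of 1.76e-05 to 0.0531). Against the Sp5 RNAi parts it was -0.46 ± 0.33 (95% interval -1.13 to 0.22; edgeR adjusted p = 0.340), and against the Sp5 RNAi proximal part -0.04 (edgeR adjusted p = 0.958).

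Markers of other cells moved in the same ectopic libraries. The tentacle homeobox gene Alx had 6.09 ± 0.35 CPM there (n = 3), against 35.7 ± 13.8 CPM in mock distal and 73.5 ± 16.4 CPM in mock proximal parts (SD, n = 4 each). The summed level of Alx and Annexin-12, both called lower, was 3181 to 3564 CPM in the ectopic tentacles, 1916 to 7839 CPM in mock distal and 7194 to 17379 CPM in mock proximal parts. Annexin-12, nearly all of this sum, averaged 3313 CPM in ectopic, 3700 CPM in mock distal and 11988 CPM in mock proximal tissue (edgeR adjusted p = 0.0486). Over the Sp5 RNAi parts the log2 fold change was -0.04 for Annexin-12, not called, and -2.37 for Alx, called (edgeR adjusted p = 0.956 and 1.1e-05). All 3 matched nematocyte markers, nb001, nb012 and nemgalA, were called higher. They were listed together for stinging cells and their precursors, and which of these cells carried the rise was not tested. Their summed levels were 451 to 5364 CPM, against 8.36 to 32.2 CPM in mock distal and 34.3 to 273 CPM in mock proximal parts. Most of the ectopic sum was nb001, with a mean of 2990 CPM. Its mean was 9.47 CPM in mock distal and 75.2 CPM in mock proximal parts. CnNK-2, a homeobox gene of the foot, was the 1 match for a list of basal disk genes, and alone it does not identify basal disk cells. It had 1.95 to 3.02 CPM, from 13 to 22 counts a library, and was called higher. Mock distal parts had 0 to 0.723 CPM of it and mock proximal parts 0 to 0.163 CPM. The 8 matched head organizer markers, 7 of them Wnt ligands, summed to 22.9 to 64.4 CPM in the ectopic tentacles, 10.7 to 20.6 CPM in mock distal parts, where Bra1, hywnt1, hywnt9/10a and hywnt9/10c were at 0, and 39.6 to 70.0 CPM in mock proximal parts, where hywnt1 and hywnt9/10c were at 0. Of the 5 head organizer markers tested, hywnt11 and Bra1 were called higher and Wnt3a lower over the mock parts, where 35.7% of all genes were called. Bra1 had 0.469 to 9.34 CPM in the ectopic tentacles (edgeR adjusted p = 0.000951). The part of these cells in the levels of hywnt5a and hywnt8 was not tested.

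In the undivided set, hywnt5a was lower in Zic4/Sp5 RNAi ectopic tentacles than in mock original tentacles, again at the edge of the threshold. The ectopic tentacles had 113, 101, 81.2 and 75.4 CPM, against 143, 132 and 192 CPM in mock, with no overlap. The log2 fold change was -0.75 ± 0.23 (SE), or 1.68-fold lower, with an edgeR adjusted p of 0.0337, where 30.0% of genes were called. The adjusted p was 0.0881 and 0.0854 without ectopic replicate 3 and 4, and 0.0712, 0.0520 and 0.135 without mock replicate 1, 2 and 3, and it was 0.0785 with the replicate block and 0.422 with the composition covariate, in a range of 0.0124 to 0.422 over the other fits and tests. The share of counts in the 10 most abundant genes was 9.24% to 11.3% in these ectopic libraries and 13.9% to 14.7% in mock. The call is therefore not stable to leaving out a library.

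In Zic4/Sp5 RNAi original tentacles hywnt5a had 108, 181, 115 and 111 CPM, and the log2 fold change over mock was -0.27 ± 0.23 (95% interval -0.78 to 0.24; edgeR adjusted p = 0.516), where 4.39% of genes were called. Replicate 2 stood above the other 3 libraries and within the mock range. Ectopic over original tentacles of these animals gave -0.47 ± 0.22 for hywnt5a (95% interval -0.95 to 0.00; unadjusted p = 0.0511, edgeR adjusted p = 0.247). In that comparison edgeR called 0 genes, or 0.00%, while 3032 genes had an unadjusted p under 0.05 and DESeq2 called 1300. Without original replicate 4, edgeR called 2037 genes.

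No difference of hywnt8 was called in the undivided set. Zic4/Sp5 RNAi ectopic tentacles had 39.1, 41.1, 19.5 and 20.2 CPM, Zic4/Sp5 RNAi original tentacles 38.3, 34.7, 40.7 and 31.3 CPM, and mock original tentacles 33.9, 30.4 and 37.6 CPM. The ectopic libraries fell into a higher and a lower pair, and the lower pair, replicates 3 and 4, lay below every other library of the set. Log2 fold changes were -0.18 ± 0.28 for ectopic over mock (95% interval -0.79 to 0.43; edgeR adjusted p = 0.647), 0.09 ± 0.28 for original over mock (95% interval -0.52 to 0.71; edgeR adjusted p = 0.875) and -0.27 ± 0.26 for ectopic over original (95% interval -0.84 to 0.29; edgeR adjusted p = 0.557).

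Markers differed in the double knockdown as well, where 30.0% of all genes were called in ectopic over mock tentacles. In the ectopic tentacles Alx had 18.2 ± 6.0 CPM (n = 4), against 58.0 ± 27.5 CPM in Zic4/Sp5 RNAi original tentacles (n = 4) and 113 ± 20.0 CPM in mock (SD, n = 3). Alx and Annexin-12, both called lower in ectopic over mock, summed to 1423 to 2342 CPM in ectopic, 1886 to 2394 CPM in Zic4/Sp5 RNAi original and 3051 to 3114 CPM in mock tentacles. The 3 nematocyte markers, of which nb012 was called higher in ectopic over mock, summed to 493 to 4940 CPM in ectopic, 10.1 to 1986 CPM in Zic4/Sp5 RNAi original and 11.5 to 75.4 CPM in mock tentacles. Most of the ectopic sum was nb001, with a mean of 2676 CPM, which was not called over mock (edgeR adjusted p = 0.0505). The mean of nb012 was 134 CPM. The foot gene CnNK-2 had 0.689 to 4.66 CPM in ectopic, 0 to 1.34 CPM in Zic4/Sp5 RNAi original and 0 to 0.0885 CPM in mock tentacles. It was called higher in ectopic over mock (edgeR adjusted p = 0.0159), on 6 to 49 counts in an ectopic library. Of the 8 head organizer markers, 4 were called higher in ectopic over mock, against 30.0% called over all genes. All 8 summed to 77.5 to 338 CPM in ectopic, 24.3 to 503 CPM in Zic4/Sp5 RNAi original and 25.1 to 46.6 CPM in mock tentacles, where hywnt1, hywnt9/10a and hywnt9/10c were at 0. In Zic4/Sp5 RNAi original over mock tentacles, 2 of the 8 were called higher, Bra1 and hywnt9/10c, where 4.39% of all genes were called (edgeR adjusted p = 0.0458 and 0.0164). Bra1 ran from 0 to 190 CPM in those original tentacles. The part of these cells in the difference of hywnt5a was not tested.

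**Figure D3:**
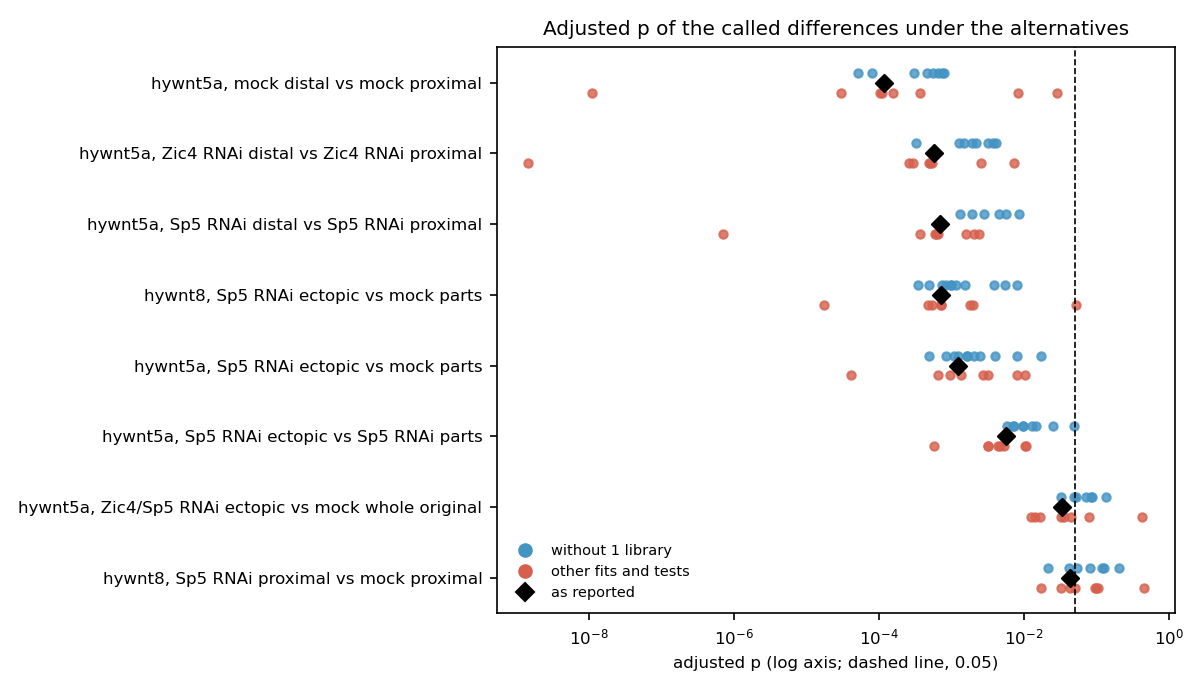
Adjusted p (log axis) of the 8 called differences of hywnt5a and hywnt8 as reported, without 1 library at a time, and under the other fits and tests planned; the dashed line is at 0.05. The 3 distal over proximal differences of hywnt5a stay below the line throughout, whereas both differences at the bottom lie on both sides of it. With the composition covariate, hywnt8 in Sp5 RNAi ectopic tentacles over the mock parts also crosses it (edgeR adjusted p = 0.0531).

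The ratio of hywnt5a to hywnt8 counts within a library does not depend on library scaling. Its absolute size depends on transcript length, so only its change between groups is described, and no test was made. It was 7.25 ± 2.56 in Zic4 RNAi distal and 8.02 ± 1.42 in Sp5 RNAi distal parts, against 4.54 ± 1.70 in mock distal parts (SD, n = 4, 3 and 4). It was 2.38 ± 0.99 in Zic4 RNAi proximal and 4.76 ± 1.39 in Sp5 RNAi proximal parts, against 2.25 ± 0.71 in mock proximal parts (n = 4, 3 and 4). The Sp5 RNAi proximal libraries, at 3.53 to 6.28, did not overlap the mock proximal ones, at 1.68 to 3.17, whereas the Zic4 RNAi proximal libraries, at 1.14 to 3.32, did. Sp5 RNAi ectopic tentacles had the narrowest range of the divided set, 4.01 to 4.48. In the undivided set the ratio was 3.31 ± 0.78 in Zic4/Sp5 RNAi ectopic and 3.60 ± 1.13 in Zic4/Sp5 RNAi original tentacles, against 4.55 ± 0.48 in mock tentacles (SD, n = 4, 4 and 3).

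**Figure D4:**
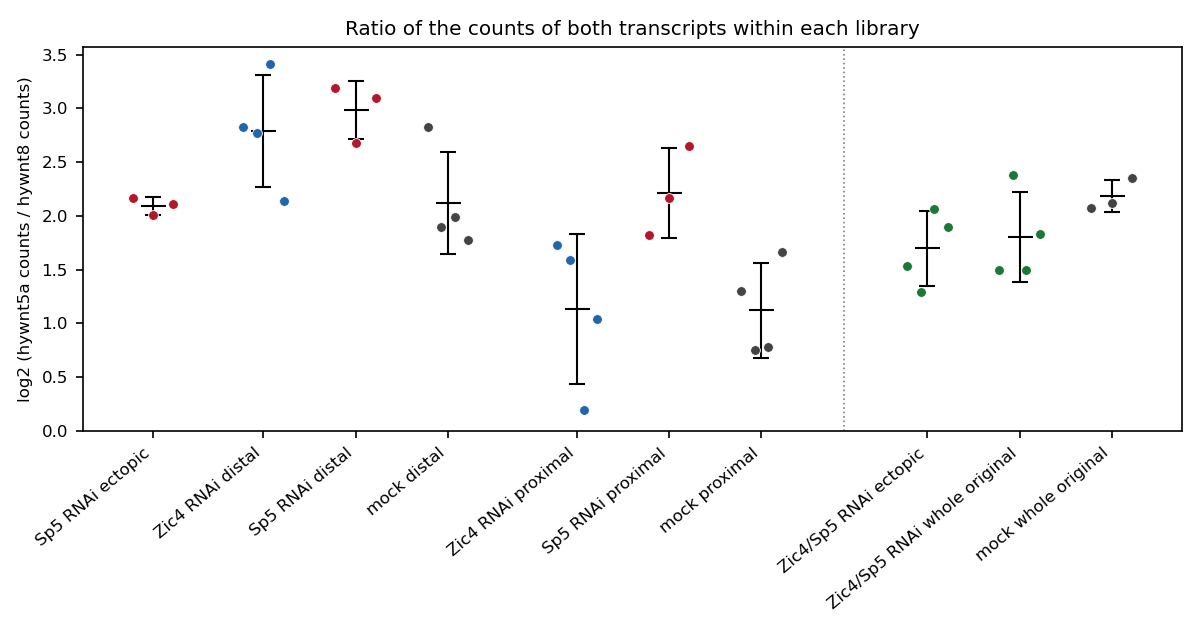
Log2 of the ratio of hywnt5a to hywnt8 counts in each library; points are libraries, and bars the mean and SD of a group. The proximal groups of Zic4 RNAi and mock average 1.14 and 1.12, and the Sp5 RNAi proximal group averages 2.21.

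Among the 8073 genes tested in the divided set with a mean of at least 10 CPM, the pattern of hywnt5a over the 25 libraries was most like those of LOC100208156 (Pearson's r of log2 CPM = 0.93), LOC100213249 (r = 0.93) and LOC101238602 (r = 0.91). These libraries share their groups. After removal of the group means, r was 0.38, 0.61 and 0.60, and over the 11 undivided libraries it was 0.91, 0.80 and 0.72. For hywnt8 the most similar genes were LOC100214959 (r = 0.77), LOC100206721 (r = 0.76) and LOC105844339 (r = 0.75), with r within groups of 0.26, 0.24 and 0.37. In the undivided libraries LOC100214959 had an r of 0.01 with hywnt8. Both ligands had an r of 0.48 with each other.

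Of the Wnt pathway, 13 other genes were matched by name, of which 8 were tested in the divided and 12 in the undivided set. Other ligands were called in comparisons in which neither hywnt5a nor hywnt8 was. In Zic4 RNAi distal parts 2 of 8 were called, against 3.64% of all genes, hywnt11 at 3.00, 3.66, 1.96 and 11.3 CPM, against 0.596, 0, 0 and 0 CPM in mock, and hywnt7 at 7.51, 18.9, 14.7 and 27.1 CPM, against 0, 0.723, 1.64 and 0 CPM in mock (edgeR adjusted p = 0.00224 and 0.0428). In Zic4 RNAi proximal parts 2 of 8 were called, a share below the 33.3% over all genes. They were hywnt11 with a log2 fold change of 2.26 and Wnt3a, the ligand that leads the head organizer, with one of -2.72 (edgeR adjusted p = 0.0348 and 0.000648). In Sp5 RNAi distal parts 0 of 8 were called, against 2.29% of all genes, and in the proximal parts 2 of 8 were, against 6.68%. They were Wnt3a with a log2 fold change of -2.96 and the frizzled receptor hyfzd5/8 with one of 1.29 (edgeR adjusted p = 0.0106 and 0.00200). That receptor had 260, 349 and 314 CPM in Sp5 RNAi proximal parts, against 121, 109, 121 and 151 CPM in mock proximal parts.

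Between parts of mock tentacles 3 of 8 were called, near the 29.5% over all genes, with log2 fold changes of 1.02 for ctnnb1, which encodes beta-catenin, -2.08 for Wnt3a and -4.65 for hywnt7, a direction opposite to that of hywnt5a for both ligands (edgeR adjusted p = 0.0153, 0.00730 and 0.00996). Between parts of Zic4 RNAi and of Sp5 RNAi tentacles 0 of 8 were called, against 5.76% and 22.7% of all genes. With 8 genes at these shares, 0 calls say little. Among the named genes of the pathway, hywnt5a was the 1 called there. In Sp5 RNAi ectopic tentacles 3 of 8 were called against the mock parts, near the 35.7% over all genes. They were hywnt11 at 13.9, 12.2 and 23.3 CPM (log2 fold change 5.52, edgeR adjusted p = 1.4e-07), Wnt3a (-2.07, edgeR adjusted p = 0.00693) and hyfzd5/8 (-0.99, edgeR adjusted p = 0.000761). Against the Sp5 RNAi parts 2 of 8 were called, near the 27.3% over all genes. They were hywnt11 at 2.82 and hyfzd5/8 at -1.84 (edgeR adjusted p = 0.000362 and 1.9e-06). Neither test of the RNAi effect in distal minus proximal parts called any of the 8, against 3.80% of all genes for Zic4 RNAi and 0.0140% for Sp5 RNAi.

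In the undivided set 4 of 12 were called in Zic4/Sp5 RNAi ectopic over mock original tentacles, near the 30.0% over all genes, and 1 to 3 of 12 without 1 library. They were hywnt11 (log2 fold change 4.59, edgeR adjusted p = 0.0416) and the ligands hywnt9/10a, hywnt9/10b and hywnt9/10c, which averaged 18.5, 7.65 and 9.50 CPM (n = 4) and had 0 counts in all 3 mock libraries. Against a floor of 3 counts over the mock group, these means were at least 197-fold, 81.4-fold and 101-fold higher. In Zic4/Sp5 RNAi original tentacles 1 of 12 was called over mock, against 4.39% of all genes, and 0 to 3 without 1 library. It was hywnt9/10c, with a mean of 13.8 CPM that was at least 147-fold higher, while its single libraries ran from 0.924 to 19.8 CPM. Ectopic over original tentacles called 0 of 12, against 0.00% of all genes. The median log2 fold change of the list was 1.60 in ectopic and 1.94 in original tentacles over mock, against 0.08 and 0.04 over all genes tested, and 4 of the 12 genes were at 0 in mock. Those genes lay above the medians at their bounds too, so setting them there could not move the medians. GSK3, a kinase of the beta-catenin branch, and stbm, a gene of planar polarity, were called in no comparison.

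**Figure D5:**
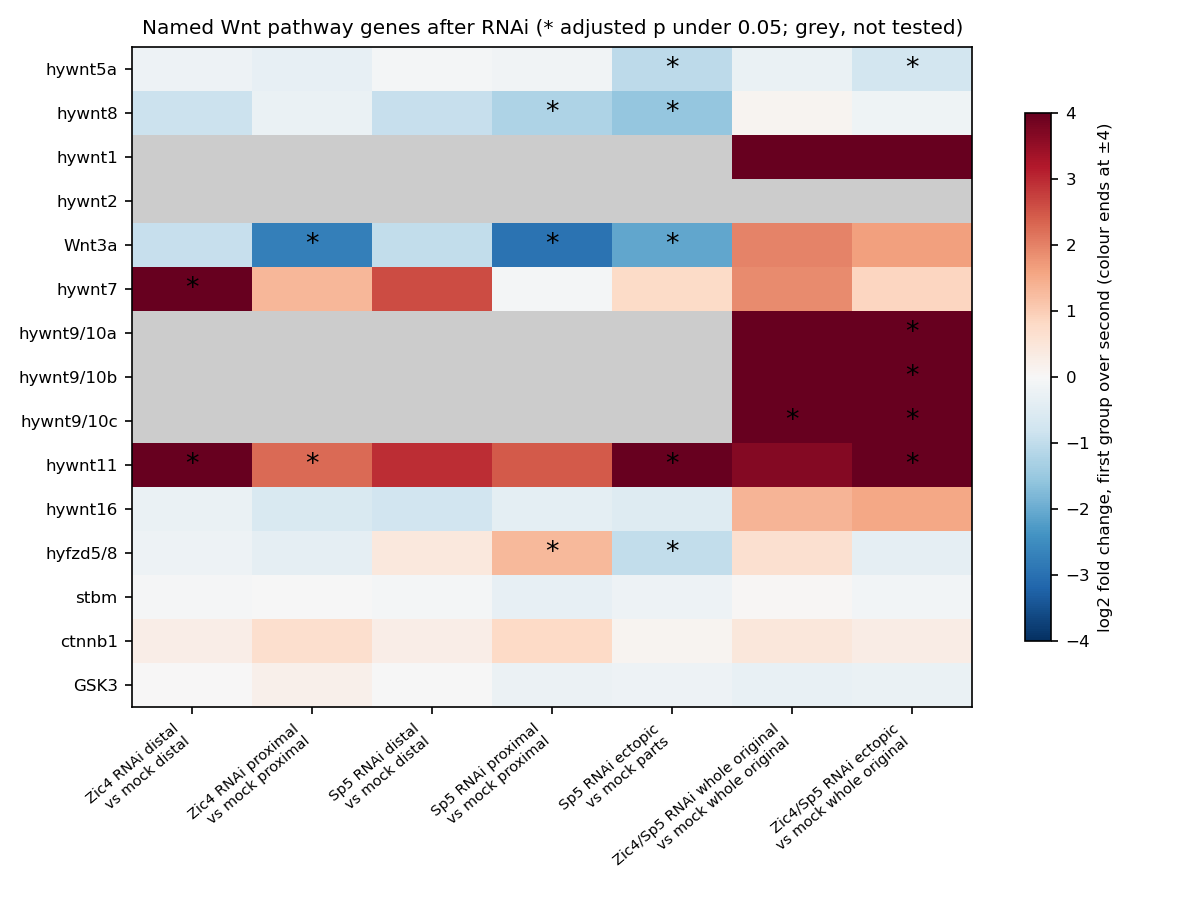
Log2 fold change (colour, ending at ±4) of hywnt5a, hywnt8 and the 13 other named Wnt pathway genes in 7 comparisons with mock; a star marks an edgeR adjusted p under 0.05 and grey a gene not tested. Values of hywnt1 and the hywnt9/10 genes in the 2 undivided comparisons have no measured size, since mock libraries were at 0, and in Sp5 RNAi ectopic tentacles the falls of hywnt5a and hywnt8 stand beside the rise of hywnt11.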

How the data were processed

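The authors deposited 1 table of raw counts for 36 libraries, whole numbers for each gene, which entered the tests unchanged. Per the submitters' processing notes, bcl2fastq and STAR 2.5.0 were used; the counting program, the genome build and the treatment of shared, overlapping or antisense reads are not given in the sources used here. Per the labels' protocols, cDNA was amplified by SmartSeq2, tagmented with Tn5 and amplified by PCR, with no molecular identifiers mentioned, so counting precision alone does not give the error.

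Gene names came from a RefSeq gene table (assembly HydraT2T_AEP), which matched 9547 of 22608 gene numbers (42.2%). The members and gene lists were chosen with earlier results of these data known. Sequences of the members are not used here. The test was that of edgeR 4.0.16, run in R 4.3.3 (filterByExpr, TMM, robust quasi-likelihood F test, group as the only factor), in 2 fits, over 14332 genes in 25 divided and 14826 in 11 undivided libraries, with Benjamini-Hochberg adjustment over all of them. Alternatives were edgeR with DESeq2 size factors, DESeq2 1.42.0, limma 3.58.1 voom, no filter on low counts, a replicate block, the share of the 10 most abundant genes as a covariate, the compared groups alone, 1 fit of all libraries, and leaving out each library. Scripts were tested on simulated data. Correlations were taken on log2 CPM, prior count 2.

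Named were the 2 members, every called Wnt ligand or frizzled of the list and up to 3 other called genes of it, all matched markers, and for each member the 3 genes most correlated with it. Within groups, none of the 48 library pairs differed by as little as sampling noise alone (chi-square per degree of freedom 9.34 to 161). Deviations of libraries with the same replicate number from their group means correlated above 0.1 in all pairs only between Zic4/Sp5 RNAi ectopic and original tentacles (r = 0.220 to 0.383). The labels do not state this pairing, and the main fit did not use it. The replicate block, an alternative fit, also joined the mock libraries by number. With that block, neither hywnt5a nor hywnt8 was called between those ectopic and original tentacles, as in the main fit.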

Additional observations from a re-analysis of the deposited data

Results flagged for a closer look

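Of the 12 sets of 4 libraries examined for both transcripts, 2 held a library far from the other 3, where chance flags about 1 set in 20. The first was hywnt8 in Zic4 RNAi proximal parts, where replicate 3 had 72.9 CPM and the others 29.9 to 33.8 CPM. Its gap to the nearest library was 0.909 of the range of the group. The second was hywnt5a in Zic4/Sp5 RNAi original tentacles, where replicate 2 had 181 CPM and the others 108 to 115 CPM, with a gap of 0.909 of the range.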

How the results depend on the processing

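Over both transcripts and 14 comparisons, 444 of 480 refits kept the direction and the side of the threshold. Of the 28 results only 8 were called, and an uncalled result that stayed uncalled in the same direction counted as kept. The refits also include the comparisons of ectopic tentacles with 1 part alone, which differ from the main ones. No called result changed direction, and 20 refits lost a call. The fall of hywnt8 in Sp5 RNAi over mock proximal parts was not called without the low-count filter (-1.24), with voom (-1.18), with the replicate block (-1.14, adjusted p = 0.0966), with the composition covariate (-0.81) or with the compared groups alone (-1.19), and ran from -1.41 to -1.06 without 1 library. The fall of hywnt5a in Zic4/Sp5 RNAi ectopic over mock tentacles was not called with the replicate block (-0.68, adjusted p = 0.0785) or the covariate (-0.79), and ran from -0.86 to -0.57 without 1 library. The covariate also ended the call of hywnt8 in Sp5 RNAi ectopic tentacles over mock parts (-1.18). Set against the proximal part alone, hywnt5a in these tentacles was not called over mock (-0.28) or over Sp5 RNAi (-0.15). The replicate block changed no other call. The 16 changes of direction were all of uncalled differences. For hywnt8 they were Zic4 RNAi distal over proximal parts without the filter (0.0024; -0.36 to 0.34 without 1 library), and, with the covariate, Zic4 RNAi over mock proximal parts (0.35), Zic4/Sp5 RNAi ectopic over mock (0.55) and ectopic over original (0.034). The Sp5 RNAi effect in distal minus proximal parts ran from -0.030 to 0.50 for hywnt8 and from -0.14 to 0.20 for hywnt5a without 1 library. For hywnt5a without 1 library, the Zic4 RNAi effect in distal minus proximal parts ran from -0.052 to 0.28, Sp5 RNAi over mock from -0.21 to 0.023 in distal parts and from -0.27 to 0.059 in proximal parts. The cause of these changes was not tested. Counts of called genes, which set the background, moved more. Without 1 library they ran from 56 to 1467 in Zic4/Sp5 RNAi original over mock tentacles (651 as reported), from 0 to 2037 in ectopic over original (0), from 103 to 562 in Sp5 RNAi over mock distal parts (328) and from 261 to 1243 in proximal parts (958), from 173 to 1034 between Zic4 RNAi parts (825), from 1193 to 3644 between Sp5 RNAi parts (3255) and from 46 to 1470 for the Zic4 RNAi effect in distal minus proximal parts (545). With the covariate they fell to 10 in Zic4 RNAi over mock proximal parts, against 4766 as reported, and to 17 in Zic4/Sp5 RNAi ectopic over mock tentacles, against 4449. With 3 or 4 libraries a group and as few as 56 counts of hywnt8 in a library, intervals for this gene span more than 1 log2 unit.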
